A study of Mus musculus with 6 samples.

Results

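The 10 genes described here are regulators that carry nutrient and stress signals to the kinase complex mTORC1, followed in cultured B16 melanoma cells with and without a knockout of the IFN-γ receptor gene Ifngr1. They are the sestrins Sesn1, Sesn2 and Sesn3, Ddit4 (which encodes REDD1), Deptor, the Rag GTPases Rraga, Rragb, Rragc and Rragd, and Flcn (folliculin). They were chosen by name, and each of the 10 symbols matched 1 of the 55335 gene rows through its Ensembl identifier in GENCODE release M21. All 10 passed the filter on low counts. Both groups are B16-BL6 cells, a mouse melanoma line, that were transduced with the lentiCRISPR v2 vector, selected with puromycin and cloned from single cells. The 3 scrambled control cultures carry a guide against GFP (the labels give their genotype as WT), and the 3 IFNγR1KO cultures a guide against exon 1 of Ifngr1, which encodes the ligand-binding chain of the receptor; knockout clones were picked by their PD-L1 response to IFN-γ. The labels name no treatment in either group. The methods state that cells were plated as triplicates the day before lysis. The paper says that it worked with single knockout clones rather than mixed populations. Neither the methods nor the labels say how many clones the sequenced cultures of a group stand for. The p-values below thus measure the spread between cultures, and the receptor loss cannot be told apart from other differences between clones.

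As background, mTORC1 is a kinase complex that promotes protein synthesis and growth when amino acids, energy and growth factors are plentiful. Amino acids act through the Rag GTPases, which work as pairs of RagA or RagB with RagC or RagD and bring mTORC1 to the lysosome, where Rheb switches it on. Sestrins hold back this route by binding GATOR2, and Sestrin2 also senses leucine; REDD1 acts on the other route, through the TSC complex that restrains Rheb, DEPTOR binds mTOR itself, and folliculin sets the nucleotide state of RagC and RagD. The sestrins and REDD1 are known as genes induced by stress, whereas melanocytes are a cell type in which MITF and its relatives, substrates of mTORC1 at the lysosome, drive lysosome and pigment genes.

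The libraries held between 6698956 and 10579788 counts on genes, and each IFNγR1KO library held fewer than each scrambled control library. One count was worth 0.0966 to 0.109 CPM in scrambled control and 0.135 to 0.142 CPM in IFNγR1KO libraries, CPM being read counts relative to the TMM-scaled size of the library. Ifngr1 was still transcribed in IFNγR1KO cells, with 80 to 85 counts against 144 to 172 (log2 fold change -0.47, adjusted p = 0.0729 from edgeR), and RNA amounts do not report whether a receptor is made. The 7 melanocyte markers summed to between 31716 and 34659 CPM in scrambled control and between 27898 and 32830 CPM in IFNγR1KO libraries, and none of them was at 0. The 5 leukocyte markers summed to at most 0.109 CPM in any library, the 3 endothelial markers to at most 0.217 CPM and the 3 epithelial markers to at most 0.760 CPM, whereas the 4 fibroblast markers summed to 4.38 to 5.97 CPM in scrambled control and 6.25 to 8.72 CPM in IFNγR1KO libraries, with Lum at 0 in all of them. Of the 2 fibroblast markers that passed the filter on low counts, Col1a1 was higher in IFNγR1KO cells (log2 fold change 1.96, adjusted p = 0.00175 from edgeR), and Pdgfra had a log2 fold change of -0.77 (adjusted p = 0.0866). The part of these markers in the results was not tested. In each group 1 library deviated most by gene length (medians on the log2 scale). Over the 2147 tested genes with more than 8 kb of exon, scrambled control replicate 3 lay 0.26 above the other libraries of its group. IFNγR1KO replicate 12 lay 0.23 above its own. Over the 3153 genes with under 2 kb both lay lower, at -0.24 and -0.21. Scrambled control replicate 2 was shifted the other way, by 0.20 under 2 kb and -0.20 over 8 kb, and was kept. Because each library is measured against the others of its group, part of that opposite shift follows from the measure. Calls of the 10 regulators and of the other pathway genes that change without replicates 3 and 12, the length-shifted libraries below, are given both ways.

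The comparison of IFNγR1KO with scrambled control cells asked which of these regulators differ in RNA level once the receptor is lost. Of the 10, Ddit4 and Sesn2 rose, Rragb fell, and 7 had an adjusted p of 0.05 or more by the quasi-likelihood test in edgeR, adjusted by the Benjamini-Hochberg method over 13642 genes. Each of the 3 also passed an absolute log2 fold change of 1. By comparison, the test called 15.3% of the 13642 genes (7.73% higher and 7.62% lower in IFNγR1KO cells), and 5.20% also passed the limit on fold change (3.25% higher and 1.96% lower). Over the 10 regulators the log2 fold changes had a median of 0.14, against -0.0015 over all tested genes. For 5 of the 10 the libraries of the groups were fully separated, as they were for 32.6% of all tested genes. These are amounts of RNA over whole cultures, where fewer cells of a kind and less RNA per cell cannot be told apart.

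**Figure D1:**
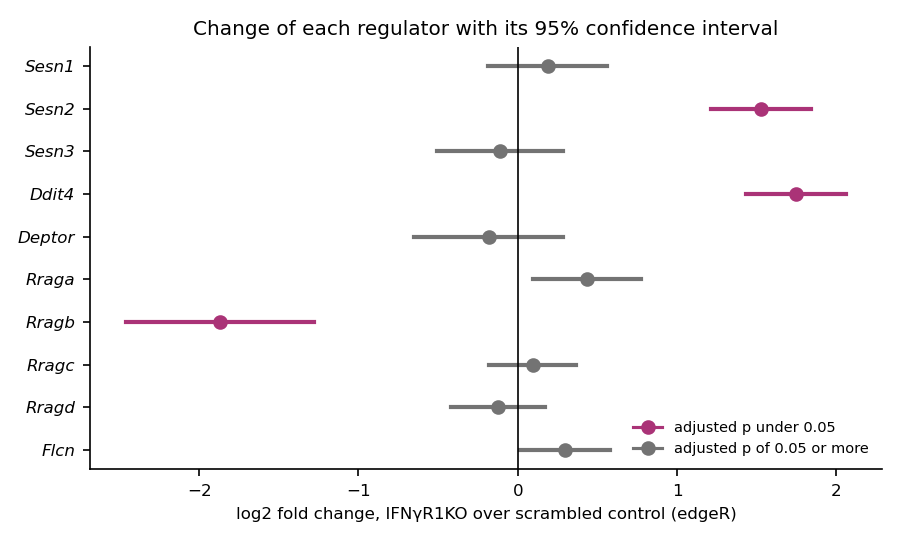
Log2 fold change of each regulator in IFNγR1KO over scrambled control cells from edgeR, with 95% confidence intervals as horizontal lines; coloured points had an adjusted p under 0.05. Ddit4 and Sesn2 lie above 1, Rragb lies below -1, and the others lie between -0.18 and 0.44.

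Ddit4 encodes REDD1, an inhibitor that is made quickly under hypoxia, glucocorticoids, DNA damage or amino acid shortage. Ddit4 (ENSMUSG00000020108.4, chromosome 10 of GRCm38, 59949669 to 59951834, minus strand) stood at 43.2, 48.8 and 36.7 CPM in scrambled control replicates 1, 2 and 3, and at 146, 149.8 and 137 CPM in IFNγR1KO replicates 10, 11 and 12. All IFNγR1KO libraries were thus far above all scrambled control libraries. The means of 42.9 ± 6.02 and 144 ± 6.89 CPM (SD, n = 3 each) differ 3.36-fold. On the log2 scale this was a fitted change of 1.75 with a standard error of 0.14 and an adjusted p of 1.12e-05 (edgeR).

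Sesn2, which encodes a leucine-sensing sestrin, moved the same way. Sesn2 (ENSMUSG00000028893.8, chromosome 4, 132492032 to 132510501, minus strand) was at 32.6, 33.4 and 31.9 CPM in the scrambled control and at 80.7, 92.5 and 109 CPM in the IFNγR1KO libraries. The control libraries were nearly level, the IFNγR1KO libraries more spread, and the groups were well separated. The means were 32.6 ± 0.772 and 94.0 ± 14.1 CPM (SD, n = 3 each), 2.88 times as high in IFNγR1KO cells, a fitted log2 change of 1.53 with a standard error of 0.15 and an adjusted p of 3.97e-05 (edgeR). Ddit4 and Sesn2 each passed in all 15 alternative settings, with log2 fold changes from 1.65 to 1.85 and from 1.39 to 1.62.

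For Sesn2, Ddit4 and Rragb, which passed the test, the sequence in front of each gene is shown. It was taken from RefSeq on GRCm38.p6 and limited to bases before the gene starts in GENCODE M21. For Rragb it runs to the end of its last motif, which spans the RefSeq start. Sesn2 is chr4:132510502-132510706 and Ddit4 is chr10:59951835-59952020, both on the minus strand, and Rragb is chrX:153139708-153139960 on the plus strand. Capitals mark the CCAAT box, read as ATTGG on this strand, in Sesn2 and Ddit4, and the E-box CACGTG in Rragb.
Sesn2: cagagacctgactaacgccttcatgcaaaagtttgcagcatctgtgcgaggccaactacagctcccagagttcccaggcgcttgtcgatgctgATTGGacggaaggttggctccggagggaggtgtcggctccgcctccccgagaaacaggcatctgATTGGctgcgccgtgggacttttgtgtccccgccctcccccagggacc
Ddit4: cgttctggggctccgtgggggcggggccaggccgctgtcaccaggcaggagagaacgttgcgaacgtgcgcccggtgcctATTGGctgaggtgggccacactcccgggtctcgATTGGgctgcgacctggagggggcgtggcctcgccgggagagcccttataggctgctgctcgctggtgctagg
Rragb: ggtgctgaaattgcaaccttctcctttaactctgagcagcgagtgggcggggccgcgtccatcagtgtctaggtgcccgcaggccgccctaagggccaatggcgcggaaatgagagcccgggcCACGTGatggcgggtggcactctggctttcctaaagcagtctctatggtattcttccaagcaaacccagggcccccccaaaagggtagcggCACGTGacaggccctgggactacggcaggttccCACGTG
Motifs were searched on both strands in windows of 250 bases before to 50 after each RefSeq start, which the table holds for 9 of the 10 genes, Deptor being the exception. Sesn2 has 2 CCAAT boxes, at -157 and -93 from the start, and Ddit4 has 2, at -170 and -137. At least 1 is in 37.4% of the 32851 promoters searched and in 6 of the 9 genes here. Among these 6 are Rragb, with 1 at -155 left in small letters above, and Sesn1, Sesn3 and Rragc, which did not pass the test. Rragb has 3 E-boxes, beginning at -127, -36 and -3, where 7.15% of promoters have at least 1 and 0.0883% have 3 or more. Rragc has 1, at -112. The core of the hypoxia response element, ACGTG, lies inside every CACGTG and so matches Rragb and Rragc too; in Ddit4 it stands alone at -187, and 19.6% of promoters hold it. The C/EBP-ATF response element TGATGNAA, bound by ATF4 in many stress genes, is in 3.97% of promoters and in none of the windows of these 9 genes, and the FoxO motif GTAAACA is in 3.65% of promoters and in 1 window, of Sesn1. Such matches describe letters in a short window, and sites further away were not searched. The part of these motifs in the changes was not tested.

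The other sestrins did not pass the test. Sesn1 (ENSMUSG00000038332.13, chromosome 10, 41809935 to 41908424, plus strand), known as a p53 target, was at 10.9, 9.95 and 10.9 CPM in scrambled control and at 13.1, 10.8 and 12.2 CPM in IFNγR1KO libraries, and the groups overlapped. Its log2 fold change was 0.19 (95% confidence interval -0.19 to 0.56, adjusted p = 0.530 from edgeR). Sesn3 (ENSMUSG00000032009.8, chromosome 9, 14275067 to 14333101, plus strand), known as a FoxO target, was at 36.5, 30.5 and 47.8 CPM in scrambled control and at 31.7, 33.1 and 41.8 CPM in IFNγR1KO libraries. The highest library of each group was the one shifted towards long genes, and Sesn3, with 15269 exonic bases, is the longest of the 10 genes. Its log2 fold change was -0.11 (interval -0.50 to 0.28, adjusted p = 0.747), and without scrambled control replicate 3 it was 0.083.

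The difference between sestrins was compared within each library, where scaling cancels out but a shift by gene length does not. Sesn2 has 3475 exonic bases, against 15269 in Sesn3. Sesn2 had 3.00, 3.36 and 2.92 counts for each count of Sesn1 in scrambled control replicates 1 to 3, and 6.17, 8.54 and 8.90 in IFNγR1KO replicates 10 to 12. The log2 ratio of Sesn2 to Sesn1 was 1.62 ± 0.107 in scrambled control and 2.95 ± 0.288 in IFNγR1KO cells (SD, n = 3 each), a difference of 1.33 (standard error 0.18). The log2 ratio of Sesn2 to Sesn3 went from -0.21 ± 0.359 to 1.40 ± 0.0710 (SD, n = 3 each), a difference of 1.61 (standard error 0.21). Without scrambled control replicate 3, a library shifted towards long genes, that difference was 1.42. In that library Sesn2 had 0.667 counts for each count of Sesn3, against 0.893 and 1.09 in scrambled control replicates 1 and 2. Neither ratio overlapped between groups (two-sided exact permutation test, p = 0.1 for each, the smallest that 3 libraries against 3 allow, and 0.133 after adjustment over the 4 ratios compared here and below). Exonic length here merges all annotated transcripts of a gene, whether or not these cells express them. Per exonic length, Sesn2 made up 64.6% ± 3.58 of the RNA of the 3 sestrins in scrambled control (SD, n = 3). In IFNγR1KO cells it made up 83.4% ± 1.83 (SD, n = 3), while Sesn1 went from 18.2% ± 0.561 to 9.47% ± 1.76.

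Among the Rag GTPases, Rragb fell. Rragb (ENSMUSG00000041658.12, chromosome X, 153139981 to 153171943, plus strand) encodes RagB, which can stand in for RagA in the heterodimer. Its reads numbered 67, 75 and 60 in scrambled control replicates 1 to 3 and 15, 10 and 15 in IFNγR1KO replicates 10 to 12, or 7.27, 7.46 and 5.80 against 2.13, 1.35 and 2.11 CPM. No IFNγR1KO library came near a scrambled control library, although counts this low make the size of the difference less certain than for Ddit4 or Sesn2. The means were 6.84 ± 0.911 and 1.86 ± 0.442 CPM (SD, n = 3 each), 3.67 times as high in scrambled control. The fitted log2 change was -1.87, with a standard error of 0.27 and an adjusted p of 0.000866 (edgeR), and in the 15 alternative settings it lay between -2.08 and -1.67 and always passed. The 4 tested genes within 500 kb of Rragb had log2 fold changes between -0.31 and 0.37, and none of them passed the test. For Ddit4 none of 6 neighbours passed, and for Sesn2 1 of 25 was higher and 3 were lower. Over all tested genes 15.3% passed, and windows with so few genes cannot be told apart from that share.

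Rraga (ENSMUSG00000070934.6, chromosome 4, 86575668 to 86577285, plus strand), which encodes the close relative RagA, was at 76.7, 68.9 and 63.6 CPM in scrambled control and at 111, 95.4 and 76.9 CPM in IFNγR1KO libraries. The groups touched without overlapping, replicate 12 being the lowest of the IFNγR1KO libraries and hardly above the highest control. The log2 fold change was 0.44 (interval 0.10 to 0.77, adjusted p = 0.0787 from edgeR). Without IFNγR1KO replicate 12 it was 0.56 (adjusted p = 0.0108), and without both libraries that were shifted by length 0.50 (adjusted p = 0.00573). Rraga is the shortest of the 10 genes, with 1618 exonic bases, and short genes were low in those 2 libraries; the part of this shift in the value was not tested. Rragb and Rraga share no stretch of 50 bases in their transcripts, so exact matches of that length cannot pass reads from 1 to the other. The log2 ratio of Rragb to Rraga was -3.34 ± 0.129 in scrambled control and -5.62 ± 0.464 in IFNγR1KO cells (SD, n = 3 each), a difference of -2.28 (standard error 0.28, two-sided exact permutation p = 0.1, adjusted 0.133). Per exonic length, Rragb was 6.56% ± 0.560 of the RagA and RagB RNA in scrambled control and 1.43% ± 0.464 in IFNγR1KO cells.

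Rragc (ENSMUSG00000028646.16, chromosome 4, 123917446 to 123936997, plus strand) and Rragd (ENSMUSG00000028278.14, chromosome 4, 32983037 to 33022180, plus strand) encode the partners RagC and RagD, which folliculin acts on. Rragc was at 168, 158 and 176 CPM in scrambled control and at 183, 179 and 174 CPM in IFNγR1KO libraries, and Rragd at 44.7, 45.1 and 49.9 against 39.4, 41.7 and 47.1 CPM. Both overlapped between the groups. The log2 fold change was 0.09 for Rragc (interval -0.18 to 0.37, adjusted p = 0.686) and -0.12 for Rragd (interval -0.42 to 0.17, adjusted p = 0.605). Of the exonic bases of Rragc, 7.90% lie under exons of 4930535I16Rik on the other strand, whose reads may be counted with it. The log2 ratio of Rragd to Rragc differed by -0.22 between the groups (standard error 0.10, two-sided exact permutation p = 0.2), with overlap. Together, Rragc and Rraga made up most of the Rag RNA per length in both groups, Rragc 47.6% ± 2.55 and Rraga 40.9% ± 2.86 in scrambled control, and 44.4% ± 3.03 and 48.0% ± 4.38 in IFNγR1KO cells (SD, n = 3 each).

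Flcn (ENSMUSG00000032633.12, chromosome 11, 59791408 to 59810016, minus strand) was at 109.8, 124 and 131 CPM in scrambled control and at 146, 156 and 146 CPM in IFNγR1KO libraries. All IFNγR1KO libraries were above all control libraries by a small margin. The log2 fold change was 0.30 (interval 0.01 to 0.58), with an adjusted p of 0.154 from edgeR, and without both length-shifted libraries it was 0.37 (adjusted p = 0.0246). With those libraries left out, Flcn and Rraga joined Ddit4 and Sesn2, so 4 regulators were higher and 1 lower; 22.3% of the 13747 genes then tested had an adjusted p under 0.05, and 10.5% were higher. Deptor (ENSMUSG00000022419.16, chromosome 15, 55112317 to 55259271, plus strand), the inhibitor that binds mTOR, was at 17.7, 15.1 and 26.0 CPM in scrambled control and at 15.2, 15.7 and 20.9 CPM in IFNγR1KO libraries. Its log2 fold change was -0.18 (interval -0.65 to 0.29, adjusted p = 0.635), and 0.075 without scrambled control replicate 3. As for Sesn3, the highest library in each group was the length-shifted one; Deptor has 8874 exonic bases, of which 3.41% lie under Gm9920 on the other strand.

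**Figure D2:**
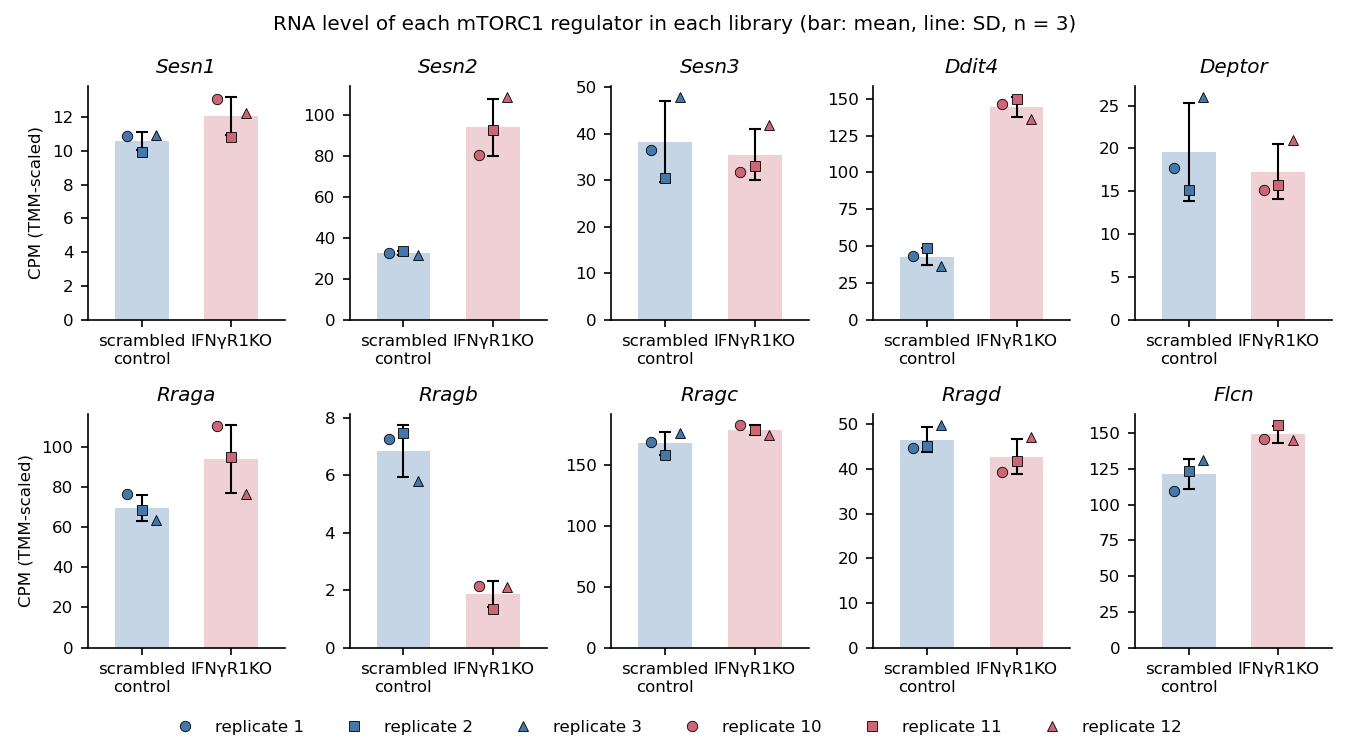
CPM of the 10 regulators in the 3 scrambled control and 3 IFNγR1KO libraries, with 1 point for each library, bars for the mean and lines for the SD; each panel has its own axis from 0, and equal symbols in the 2 groups do not mark pairs. Ddit4 and Sesn2 are higher in every IFNγR1KO library and Rragb lower, while replicates 3 and 12 are the highest of their groups for Sesn3 and Deptor.

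Levels of different genes were compared as CPM per kb of exon, with the same merged exonic lengths. In scrambled control cells Rragc stood highest at 50.1 ± 2.75 CPM per kb, followed by Rraga at 43.1 ± 4.09, Flcn at 28.1 ± 2.49 and Ddit4 at 24.4 ± 3.43 (SD, n = 3 each). The ranges of Rragc and Rraga overlapped, as did those of Flcn and Ddit4. Sesn2 at 9.39 ± 0.222 and Rragd at 8.999 ± 0.555 could not be ordered, and neither could the lowest group, Rragb at 3.03 ± 0.404, Sesn1 at 2.66 ± 0.136, Sesn3 at 2.51 ± 0.575 and Deptor at 2.21 ± 0.640, in which each gene overlapped the next. In IFNγR1KO cells Ddit4 was the highest, at 82.2 ± 3.92 CPM per kb, above the range of every other regulator. Rraga at 58.3 ± 10.5 and Rragc at 53.4 ± 1.21 overlapped, and Flcn followed at 34.5 ± 1.33. Sesn2, at 27.1 ± 4.06, now lay clear of Rragd at 8.26 ± 0.767, and Rragb, at 0.826 ± 0.196, below all the others. Sesn1, Sesn3 and Deptor stayed between 1.95 and 3.03 CPM per kb on average.

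**Figure D3:**
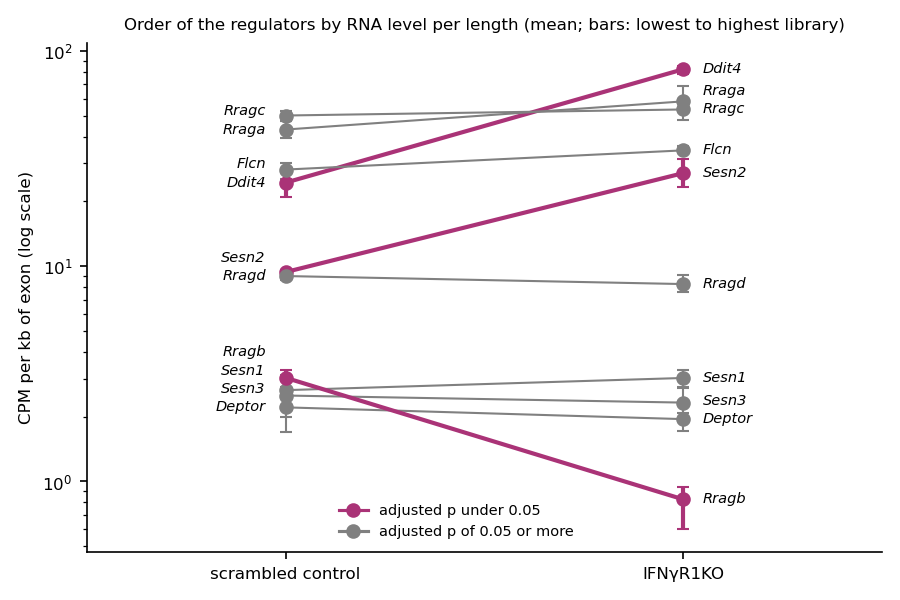
RNA level of each regulator as CPM per kb of exon on a log axis, in scrambled control and IFNγR1KO cells; points are means of 3 libraries and bars run from the lowest to the highest library. Ddit4 moves from the fourth to the first place, Sesn2 parts from Rragd, and Rragb moves to the last place.

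The rest of the route was read from 64 further genes of the pathway, of which 63 were matched and 58 passed the filter on low counts. Of these, 5 were higher and 5 lower, 17.2%, against 15.3% of all tested genes, and their median log2 fold change was 0.03. The lists of the amino acid route are short, so few or no calls in a list cannot be told apart from that 15.3%. None of 5 Ragulator subunits, which anchor the Rags to the lysosome, passed. The same held for 3 GATOR1 subunits, which switch RagA and RagB off, and for 2 folliculin partners. Without both length-shifted libraries 9 of the 58 were higher and 7 lower, where 22.3% of all genes then tested were called, 10.5% being higher. In that fit by edgeR 2 of the GATOR1 subunits passed, Nprl2 (log2 fold change -0.55, adjusted p = 0.0335) and Nprl3 (0.41, adjusted p = 0.0227). The folliculin partner Fnip2 passed too (-0.46, adjusted p = 0.0436). These genes, and Kptn and Maf1 below, lie outside the rule for named genes and are named for this change of call. In GATOR2, the complex that sestrins bind, 1 of 5 was higher, Mios, which averaged 24.9 ± 1.61 and, in IFNγR1KO cells, 39.4 ± 0.721 CPM (SD, n = 3 each; log2 fold change 0.66, adjusted p = 0.00637 from edgeR). In KICSTOR, which tethers GATOR1 to the lysosome, 1 of 3 tested was higher, Itfg2 (log2 fold change 0.70, adjusted p = 0.00305), with 2.18% of its exonic bases under another gene on the other strand; without both length-shifted libraries Kptn passed too (log2 fold change 0.58, adjusted p = 0.0382). Among 5 amino acid sensors, 1 was lower, Castor2, a relative and partner of the arginine sensor CASTOR1, with a log2 fold change of -0.80 (adjusted p = 0.0200). Castor2 did not pass when scrambled control replicate 3, IFNγR1KO replicate 10 or IFNγR1KO replicate 11 was left out.

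On the growth factor and energy routes, none of the 5 genes of the TSC complex and Rheb and none of the 7 tested genes of AMPK and its activator LKB1 passed. Over all tested genes 15.3% passed, and lists this short cannot be told apart from that share. Of the 7 genes of AMPK and LKB1, 6 had a log2 fold change below 0 and 1 above (median -0.10). The groups were fully separated for 2 of them, or 28.6%, against 32.6% of all tested genes. Tsc2, the GTPase-activating subunit through which REDD1 acts, had a log2 fold change of 0.05 (95% interval -0.26 to 0.36). Mtor was at 33.5 ± 8.19 and 34.1 ± 9.38 CPM (SD, n = 3 each; log2 fold change 0.03, interval -0.44 to 0.50) and Rptor, the subunit that defines mTORC1, had a log2 fold change of -0.23 (interval -0.65 to 0.19); the signs of Tsc2 and Mtor changed when single libraries were left out. Of 7 tested subunits of the mTOR complexes, 1 passed, Prr5, a subunit of mTORC2, which was lower with a log2 fold change of -0.81 (adjusted p = 0.00598). Ddit4l, the paralog of Ddit4 that encodes REDD2, had 36, 41 and 33 counts in scrambled control and 3, 2 and 3 in IFNγR1KO libraries. Its fitted log2 fold change was -3.27 (95% interval -4.12 to -2.42, adjusted p = 0.000236 from edgeR), opposite to Ddit4. With its IFNγR1KO level set at 3 counts per library, the most seen in any of them, the scrambled control mean was 8.91 times as high. Trib3, a pseudokinase that binds Akt and is known as a stress-induced gene, averaged 41.0 ± 4.57 CPM without and 459.5 ± 6.63 CPM with the knockout (log2 fold change 3.49, adjusted p = 8.78e-08).

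Among the ubiquitin ligases known to act on these proteins, 1 of 3 tested was lower, Skp2, which targets RagA, with a log2 fold change of -1.004 (adjusted p = 0.000866). Of 8 tested mTORC1 substrates, 2 were higher and 1 lower. Over all tested genes, the share called was 15.3%. Eif4ebp1, which encodes the translation repressor 4E-BP1, averaged 125 ± 24.7 CPM without and 295 ± 9.90 CPM with the knockout (log2 fold change 1.23, adjusted p = 0.000355), whereas its paralog Eif4ebp2 was at 133 ± 33.4 and 78.1 ± 22.1 CPM (log2 fold change -0.77, adjusted p = 0.0295). Eif4ebp2 did not pass when scrambled control replicate 2 or 3 or IFNγR1KO replicate 10 or 11 was left out. Rps6kb2, encoding an S6 kinase, had a log2 fold change of 0.51 (adjusted p = 0.0489). It passed in 1 of the 6 fits that left out a library, the one without IFNγR1KO replicate 12, and 23.7% of its exonic bases lie under exons on the other strand. Maf1, a repressor of RNA polymerase III, had an adjusted p of 0.0826, and without both length-shifted libraries a log2 fold change of 0.47 (adjusted p = 0.00711). None of the 3 tested MiT/TFE factors, which folliculin and the Rags control, passed: Mitf was at 206 ± 28.7 and 267 ± 18.9 CPM (log2 fold change 0.37, adjusted p = 0.109), and without both length-shifted libraries its log2 fold change was 0.42 (adjusted p = 0.0181).

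**Figure D4:**
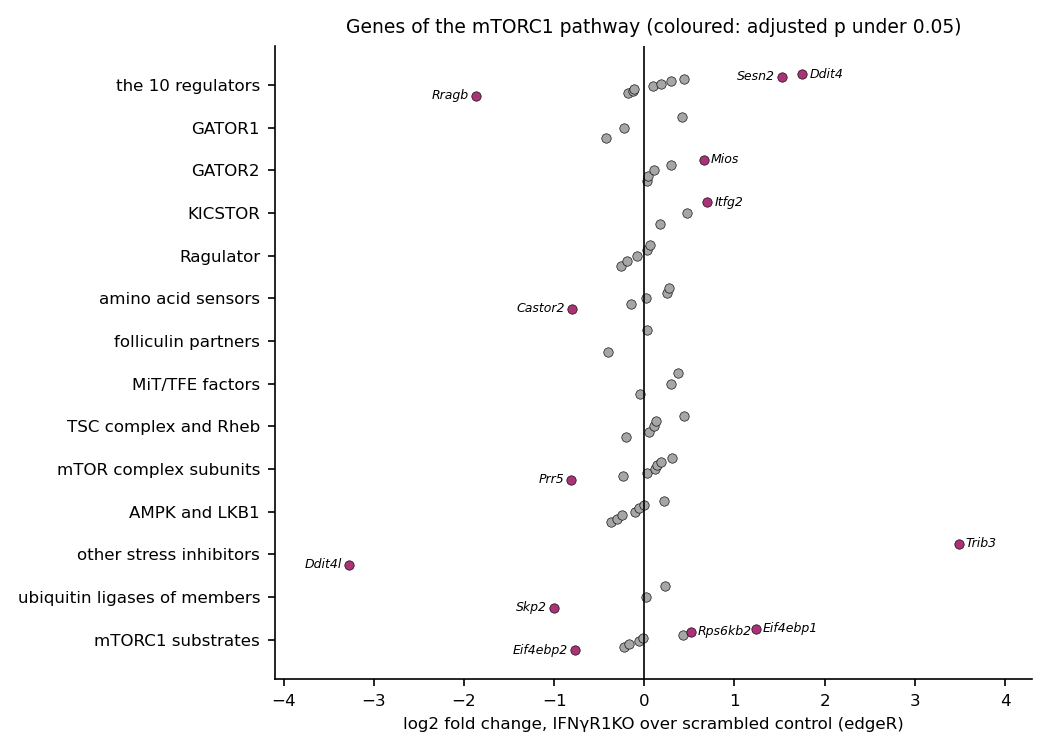
Log2 fold change from edgeR of the 10 regulators and of the 58 other pathway genes tested, grouped by complex or role; coloured and named genes had an adjusted p under 0.05. In most groups the points lie close to 0, and Trib3 and Ddit4l, in the group of other stress inhibitors, lie farthest out; the value of Ddit4l is a fitted one with IFNγR1KO libraries at 3 counts or fewer.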

How the data were processed

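RNA of 3 scrambled control and 3 IFNγR1KO cultures was sequenced with paired-end reads after poly(A) selection. The authors aligned reads to GRCm38 with STAR 2.7.5a and deposited raw read counts per gene from htseq-count (HTSeq 0.11.2), 1 table per library; the annotation release and strand setting are not given in the sources used here. Between 46.9% and 47.7% of the reads listed in a library had no gene and stayed out of all totals.

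From these counts, genes with few reads were removed with filterByExpr (minimum count 10, minimum total 15), libraries were scaled by TMM, and the 2 groups were tested with quasi-likelihood in edgeR 4.0.16 (R 4.3.3), with Benjamini-Hochberg adjustment over all 13642 tested genes and an adjusted p under 0.05 as the call. The study used DESeq2's Wald test with a further limit of 1 on the absolute log2 fold change. Exonic lengths, strand overlaps and symbols were taken from GENCODE M21, where 55154 of 55335 identifiers were found; Kics2 was not matched. Ratios of 2 genes used counts plus 0.5 and a two-sided exact permutation test over the 20 splits of 6 libraries. The test was checked on simulated counts. Alternatives were DESeq2 1.42.0, limma 3.58.1 (voom), other scalings and filters, thinning to the smallest library, an adjusted p under 0.01, leaving out genes under exons of the other strand, and leaving out each library. DESeq2 without a filter, leaving out both length-shifted libraries together, the motifs, the neighbouring genes and the length comparison were added after the data had been seen. The 10 regulators and the gene lists were chosen with earlier results of these data known. All 10 are described; of the other lists, genes that passed are named, and Mtor, Rptor, Tsc2, Atf4 and Mitf whatever their value.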

Additional observations from a re-analysis of the deposited data

How the results depend on the processing

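No paired analysis was possible because the labels number the scrambled control libraries 1 to 3 and the IFNγR1KO libraries 10 to 12, so no number is shared. Ddit4, Sesn2 and Rragb passed in all 15 alternatives, and in the 6 fits that left out a library 2 to 3 regulators were higher and 1 was lower. Leaving out both length-shifted libraries gave 4 regulators and 9 pathway genes higher, and 1617 of all genes lower. Leaving out 1 library gave 4 to 8 pathway genes higher and 3 to 6 lower (8 higher without IFNγR1KO replicate 12, and 3 lower without scrambled control replicate 3, IFNγR1KO replicate 10 or IFNγR1KO replicate 11), and 535 to 1372 of all genes higher and 457 to 1452 lower, where leaving out scrambled control replicate 2, IFNγR1KO replicate 10 or IFNγR1KO replicate 11 lowered both counts by over 1.5 times. With an adjusted p under 0.01, 454 of all genes were higher, 417 lower, and 3 pathway genes lower. Without genes under exons of the other strand 3 pathway genes were higher, fewer genes being counted. Sesn3 and Deptor, neither called, changed sign without scrambled control replicate 3, to 0.083 and 0.075. Over the 6 fits the log2 fold change of Sesn3 ran from -0.25 to 0.083, and that of Deptor from -0.35 to 0.075. Why Sesn3 and Deptor changed sign was not tested. Over the same fits the log2 ratio differences ran from 1.23 to 1.49 (Sesn2 to Sesn1), 1.42 to 1.78 (Sesn2 to Sesn3), -2.52 to -2.05 (Rragb to Rraga) and -0.31 to -0.15 (Rragd to Rragc). Depth limits the precision for Rragb, with 10 to 15 counts in IFNγR1KO libraries, and for Ddit4l, with 2 to 3.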

Other observations

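Of 9 transcription factors known to act on genes among the 10 regulators, 1 passed the test, or 11.1%, against 15.3% of all tested genes. Atf4, the effector of the integrated stress response and a known activator of Sesn2 and Ddit4, averaged 525 ± 76.3 CPM without and 1151 ± 92.5 CPM with the knockout (SD, n = 3 each; log2 fold change 1.13, standard error 0.16, adjusted p = 0.000748 from edgeR), and it passed in all 6 fits that left out a library. The other 8, among them factors of the p53, FoxO, hypoxia, glucocorticoid and oxidative stress responses, had adjusted p values of 0.05 or more. Over the 9 factors the log2 fold changes ran from -1.02 to 1.13, so not every uncalled factor lay near 0. For 3 of the 9 the groups were fully separated, or 33.3%, against 32.6% of all tested genes. These values are amounts of RNA and do not report how active a factor is. Whether Atf4 or any of the other 8 had a part in the changes of Sesn2, Ddit4 or Rragb was not tested.

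The length shift of scrambled control replicate 3 and IFNγR1KO replicate 12 was seen over all tested genes. From genes with under 2 kb of exon to those with over 8 kb, the median deviation of a library from the other libraries of its group ran from -0.24 to 0.26 in scrambled control replicate 3 and from -0.21 to 0.23 in IFNγR1KO replicate 12. The deviation ran in the opposite direction in the other 4 libraries, most in scrambled control replicate 2 (0.20 to -0.20). Each library is measured against the others of its group, so opposite directions within a group follow in part from the measure. Over all genes 2093 were called with all libraries and 3064 with both left out. Leaving out scrambled control replicate 3 alone gave 899 genes higher and 883 lower, and leaving out IFNγR1KO replicate 12 alone gave 1372 higher and 1452 lower.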
